A study of Mus musculus with 19 samples.

Results

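Ribosomes that stall on an mRNA, or that collide with a stalled ribosome ahead, are taken apart by a dedicated set of factors, and 9 genes of that set are described here: Pelo, Hbs1l, Abce1, Gtpbp1, Gtpbp2, Zfp598, Ascc3, Nemf and Ltn1. They were chosen by symbol and role, with earlier results of these data known, and all 9 were found among the 14459 genes of the deposited gene tables. In mammals the collision sensor ZNF598 (Zfp598 in the mouse) ubiquitinates the small subunit, and the helicase ASCC3 pulls the leading collided ribosome apart. Pelota and HBS1L enter ribosomes whose A site is empty, and ABCE1 splits the subunits. On the large subunit left with a peptidyl-tRNA, NEMF recruits the ubiquitin ligase Listerin (Ltn1), which marks the nascent chain for the proteasome. GTPBP1 and GTPBP2 are GTPases related to HBS1L. Loss of Gtpbp2 causes neurodegeneration in mice that also carry a defective brain arginine tRNA gene, as C57BL/6J mice do.

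The study set Fmr1 KO slices against WT slices with 2 assays of each lysate. One sequenced ribosome footprints (RPF, the stretches of mRNA that a ribosome shields from nuclease), and the other cytoplasmic RNA. FMRP, the product of Fmr1, binds RNA, is found on ribosomes and is reported to slow or stall elongation. The comparison asks whether stalling and rescue genes differ in level without it. KO mice, whose allele the labels name only as Fmr1 KO, had been backcrossed for over 10 generations, and both groups were male littermates aged 28 to 35 days (C57BL/6 per the sample labels, C57BL/6N per the design text). Slices of both groups were 400 µm thick, rested at 30 °C for 3 to 4 h and were treated with cycloheximide, which arrests ribosomes, at 100 µg/ml. Each replicate pooled 8 to 10 slices from 6 to 8 mice, so an n counts pools and not animals. Whether cortex was included is unclear, since the labels name hippocampal-cortical slices but the protocol describes hippocampal slices with CA3 cut away to enrich CA1. The analysed libraries were 3 KO and 4 WT for footprints and 3 KO and 4 WT for RNA, of 19 labelled samples. The other 5 are not analysed here.

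Footprint libraries held 16.06 to 19.23 M estimated counts in KO and 15.57 to 22.71 M in WT, and RNA libraries held 6.36 to 9.96 M in KO and 4.97 to 6.76 M in WT (M, 1e6). Levels are given in TPM, which is scaled by each gene's length as set in the submitters' processing. Each mean carries its SD over 3 KO or 4 WT libraries. Fold changes are KO over WT on the log2 scale with their SE, from edgeR's quasi-likelihood test, and a gene is called at an adjusted p under 0.05. Fmr1, the targeted gene, averaged 4.81 ± 0.222 TPM in KO footprints and 44.4 ± 1.53 TPM in WT footprints, and every KO library matched its label. The median log2 fold change of all genes lay at -0.0001 in footprints and -0.005 in RNA, so a change shared by all genes cannot be seen. Of 14438 genes tested in footprints 18.5% were called, 8.15% higher and 10.4% lower. In RNA 4.89% of 13877 genes were called, 2.11% higher and 2.77% lower. For footprints relative to RNA 0.0346% of 14435 genes were called. Markers of hippocampal excitatory neurons and of CA1 were all measured, and those of CA3 were too, at summed levels of 200 to 209 TPM in KO footprints and 204 to 216 TPM in WT footprints.

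In KO footprints 2 of the 9 genes were called, both higher: Gtpbp2 by 16.9% and Zfp598 by 12.2%. None was called lower. The background beside this count is the 8.15% of all genes called higher. In total 8 of the 9 genes had a footprint log2 fold change above 0, beside 50.0% of all genes tested. The median of the 9 was 0.09, with a range of -0.04 to 0.22. Above 0 were also 7 of the 9 in RNA and 4 in footprints relative to RNA, beside 48.7% and 46.9% of all genes tested. No gene of the 9 was called in RNA, where the median was 0.07, and none in footprints relative to RNA, where it was -0.03. In RNA 1 fit over all 4 groups called 1 gene, Gtpbp2 (adjusted p = 0.0291), and no other alternative called any. At an unadjusted p under 0.05 there were 3 of the 9 in footprints, 4 in RNA and 1 in footprints relative to RNA, beside 31.3%, 20.5% and 10.8% of all genes. Summed over the 9 genes, footprints averaged 217.9 ± 12.5 TPM in KO slices and 207.8 ± 9.72 TPM in WT slices, and the library ranges of 209.6 to 232.3 and 194.2 to 215.6 TPM overlapped. Summed RNA averaged 235.6 ± 12.4 TPM in KO slices and 219.5 ± 6.59 TPM in WT slices, again with overlapping ranges.

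**Figure D1:**
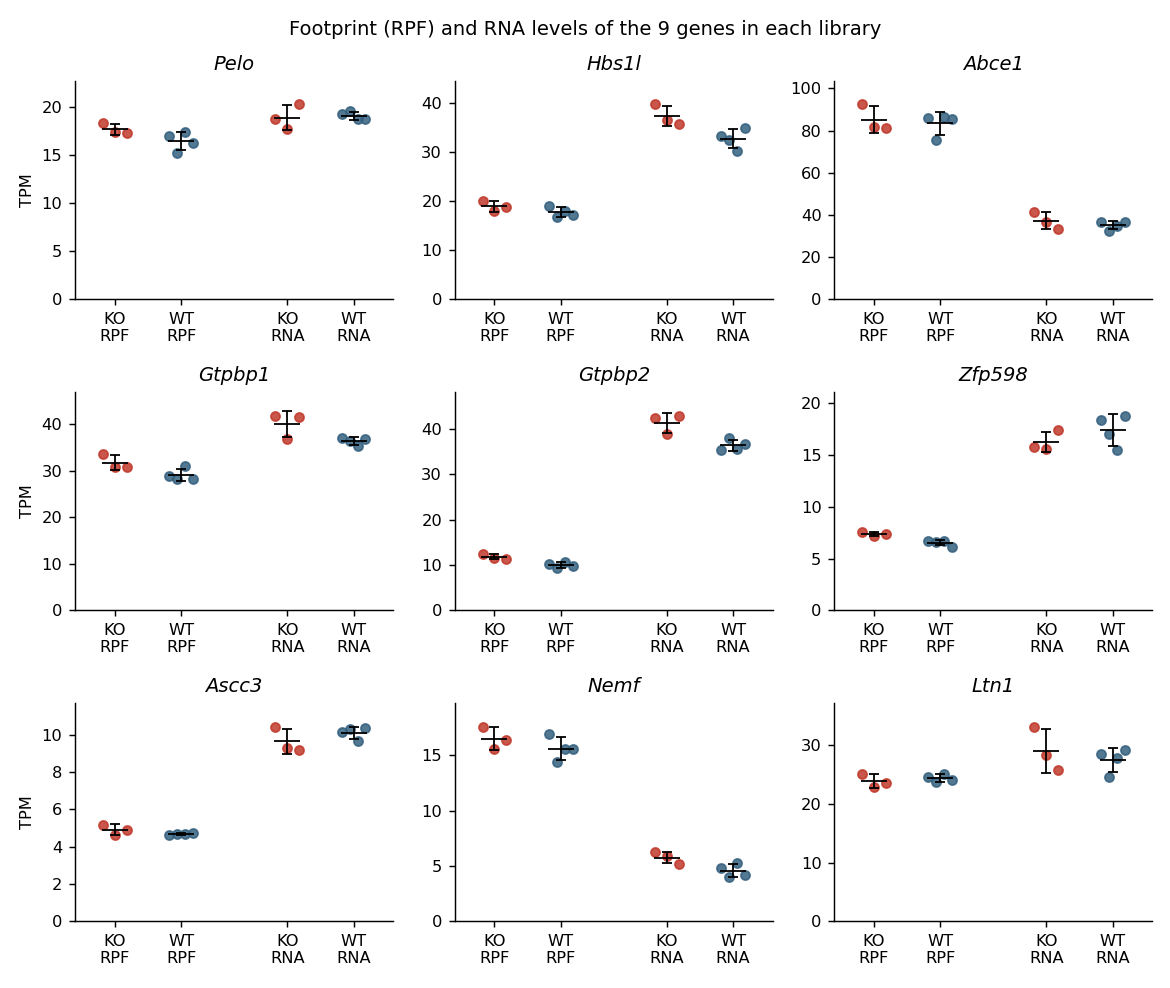
TPM of each of the 9 genes in each library, one panel per gene, with the y axis starting at 0. Red points are KO libraries and blue points WT libraries, footprints (RPF) to the left and RNA to the right, and black marks give the mean and SD (n = 3 KO and 4 WT). Footprints of Gtpbp2 and Zfp598 lie higher in every KO library than in any WT library, and RNA does so for Gtpbp2 and Hbs1l. Of all genes, 15.1% show this in footprints and 9.03% in RNA.

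The start regions of the 2 genes called in footprints are shown because both lie on chromosome 17 and carry different sets of known promoter elements. Each runs from 250 bases before to 50 bases after a RefSeq start site of the gene (GRCm38.p6, plus strand). Gtpbp2 spans 46159227 to 46169370 of chromosome 17, and its window, chr17:46160782-46161081, lies inside the annotated gene, at the start of one of its transcripts. Zfp598 spans 24669687 to 24682023, and its window is chr17:24669437-24669736. Capitals mark matches to the letters ACTACA followed after any 2 bases by TCC (ZNF143 core), TGACG (CRE half-site, part of a cyclic AMP response element), GGGCGG (GC box) and CGGAAG (ETS core) on either strand.
Gtpbp2: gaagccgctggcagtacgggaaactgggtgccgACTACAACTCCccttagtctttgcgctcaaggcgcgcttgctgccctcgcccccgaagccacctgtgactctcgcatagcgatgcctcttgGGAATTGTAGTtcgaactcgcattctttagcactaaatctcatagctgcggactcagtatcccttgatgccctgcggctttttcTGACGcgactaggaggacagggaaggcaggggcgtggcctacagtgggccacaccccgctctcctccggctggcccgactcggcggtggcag
Zfp598: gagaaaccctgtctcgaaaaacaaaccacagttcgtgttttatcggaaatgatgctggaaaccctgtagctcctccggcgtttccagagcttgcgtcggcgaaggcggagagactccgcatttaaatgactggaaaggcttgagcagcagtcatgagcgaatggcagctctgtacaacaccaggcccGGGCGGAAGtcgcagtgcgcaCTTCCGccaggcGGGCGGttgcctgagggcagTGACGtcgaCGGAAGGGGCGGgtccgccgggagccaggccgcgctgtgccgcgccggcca

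The Gtpbp2 window, with 60.7% G and C, held 2 matches to the ZNF143 core, at -217 on the plus strand and at -126 on the minus strand, and 1 CRE half-site. The ZNF143 core occurs in 1.98% of 32851 RefSeq start windows of this length and in no other of the 9 genes. The Zfp598 window, with 61.7% G and C, held 3 GC boxes, 3 ETS cores and 1 CRE half-site, and the capital runs with both a GC box and an ETS core are sites where these 2 adjoin or overlap. The GC box occurs in 35.7% of all windows and in 4 of the 9 genes, and the ETS core in 16.9% and in 2 of the 9. The CRE half-site occurs in 20.8% of all windows and in 7 of the 9 genes. The CCAAT box (the letters CCAAT) occurs in 37.4% and in 4 of the 9, and the TATA box (TATAAA) in 13.6% and in 0 of the 9. The motifs were picked after the sequences were seen, and a match is a run of letters and not a tested site.

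The products of Pelo and Hbs1l act on ribosomes with an empty A site, and that of Abce1 splits the subunits. Pelo (chromosome 13, 115088355 to 115090158) encodes Pelota, the relative of termination factor eRF1. Its footprints stood at 18.3, 17.4 and 17.3 TPM in KO libraries, against 17.0, 15.2, 17.4 and 16.3 TPM in WT libraries. Its RNA stood at 18.7, 17.7 and 20.3 TPM in KO libraries, against 19.2, 19.6, 18.8 and 18.8 TPM in WT libraries. Both pairs of ranges overlapped. The footprint log2 fold change was 0.09 ± 0.05 (adjusted p = 0.322), and that of RNA was 0.00 ± 0.08 (adjusted p = 0.992). Pelo overlaps Itga1 in the annotation, and its RNA rested on 82 to 177 estimated counts a library.

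Hbs1l (chromosome 10, 21295979 to 21368889) encodes the GTPase that delivers Pelota. Its footprints stood at 20.1, 17.9 and 18.7 TPM in KO libraries, against 18.99, 16.7, 18.1 and 17.2 TPM in WT libraries. Its RNA stood at 39.7, 36.5 and 35.7 TPM in KO libraries, against 33.3, 32.5, 30.2 and 34.8 TPM in WT libraries. All 3 KO libraries thus lay above all 4 WT libraries in RNA, as for 9.03% of all genes, while the footprint ranges overlapped. The RNA log2 fold change was 0.19 ± 0.06 and missed the threshold (adjusted p = 0.107), and that of footprints was 0.09 ± 0.05 (adjusted p = 0.278). Relative to RNA the footprints gave -0.11 ± 0.08 (adjusted p = 0.694).

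Abce1 (chromosome 8, 79683442 to 79711740) encodes the ATPase that separates the subunits after termination as well as after rescue, and its footprints were the highest of the 9 genes in both groups. They stood at 92.4, 81.6 and 81.5 TPM in KO libraries, against 85.9, 75.5, 86.5 and 85.7 TPM in WT libraries, and KO replicate 1 and WT replicate 2 stood apart from the rest of their groups. Its RNA stood at 41.3, 36.8 and 33.4 TPM in KO libraries, against 36.8, 32.4, 34.8 and 36.7 TPM in WT libraries. Neither assay separated the groups, at 0.02 ± 0.05 for footprints (adjusted p = 0.853) and 0.06 ± 0.07 for RNA (adjusted p = 0.688). The sign of the footprint value turned without KO replicate 1 (-0.03) and without WT replicate 2 (-0.02). Abce1 overlaps Anapc10 in the annotation.

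Gtpbp1 and Gtpbp2 encode GTPases of the translation factor family. Gtpbp2 footprints stood at 12.4, 11.6 and 11.3 TPM in KO libraries, against 10.2, 9.31, 10.6 and 9.73 TPM in WT libraries. Every KO library lay above every WT library, as for 15.1% of all genes in footprints. Means were 11.8 ± 0.549 TPM in KO slices and 9.98 ± 0.583 TPM in WT slices, a log2 fold change of 0.22 ± 0.05 (adjusted p = 0.0105). Its RNA also kept the groups apart, with KO above WT as for 9.03% of all genes in RNA. The RNA stood at 42.3, 38.8 and 43.0 TPM in KO libraries against 35.4, 38.1, 35.6 and 36.6 TPM in WT libraries. The RNA log2 fold change of 0.19 ± 0.06 missed the threshold (adjusted p = 0.106), and the footprints relative to RNA gave 0.03 ± 0.08 (adjusted p = 0.969). The footprint call was lost in 1 of 19 alternatives, a block on replicate number (adjusted p = 0.0695). It held without any one library, with log2 fold changes of 0.20 to 0.26.

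Gtpbp1 (chromosome 15, 79690001 to 79721479) had the next larger value after the called genes. Its footprints stood at 33.7, 30.8 and 30.9 TPM in KO libraries, against 29.0, 28.2, 31.0 and 28.2 TPM in WT libraries. Its RNA stood at 41.9, 36.9 and 41.6 TPM in KO libraries, against 37.2, 36.5, 35.3 and 37.0 TPM in WT libraries. In each assay 1 library closed the gap between the groups: WT replicate 3 was the highest WT library in footprints, and KO replicate 2 the lowest KO library in RNA. Footprints gave a log2 fold change of 0.12 ± 0.04 (adjusted p = 0.0751), and RNA gave 0.14 ± 0.06 (adjusted p = 0.216). Without WT footprint replicate 3 the footprint change reached 0.15 (adjusted p = 0.0377).

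Zfp598 and Ascc3 act on collided ribosomes. Zfp598 footprints stood at 7.54, 7.14 and 7.39 TPM in KO libraries, against 6.67, 6.58, 6.69 and 6.14 TPM in WT libraries. The groups did not overlap, with KO above WT as for 15.1% of all genes in footprints. Means were 7.36 ± 0.202 TPM in KO slices and 6.52 ± 0.260 TPM in WT slices, a log2 fold change of 0.17 ± 0.05 (adjusted p = 0.0394). Its RNA pointed the other way, at 15.8, 15.6 and 17.4 TPM in KO libraries against 18.4, 17.0, 15.5 and 18.8 TPM in WT libraries, and 0 of 3 KO libraries exceeded the WT mean. The RNA ranges overlapped and the RNA change was not called (-0.08 ± 0.08, adjusted p = 0.615). Footprints relative to RNA gave 0.24 ± 0.09, with an unadjusted p of 0.0135 and an adjusted p of 0.295 from edgeR. The footprint call sat near the threshold and was lost in 9 of 19 alternatives, with an adjusted p of up to 0.175 (with a block on replicate number). These included leaving out KO replicate 1 (adjusted p = 0.108), KO replicate 3 (0.106), WT replicate 3 (0.0506) or WT replicate 4 (0.144), and DESeq2 (0.162), the covariate for replicates 1 and 2 against 3 and 4 (0.0786), 1 fit over all groups (0.0537) and limma on log2(TPM + 0.1) (0.0508). The log2 fold change stayed between 0.14 and 0.19 over the alternatives.

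Ascc3 (chromosome 10, 50592663 to 50851202) had the lowest footprint level of the 9 genes. Footprints stood at 5.19, 4.61 and 4.92 TPM in KO libraries, against 4.64, 4.69, 4.66 and 4.72 TPM in WT libraries. The 4 WT libraries lay within an SD of 0.0367 TPM, and KO replicate 2 fell below all of them while the other 2 KO libraries were above. RNA stood at 10.4, 9.30 and 9.18 TPM in KO libraries, against 10.1, 10.3, 9.65 and 10.4 TPM in WT libraries, with overlap. Neither difference was called (footprints 0.06 ± 0.04, adjusted p = 0.382, RNA -0.08 ± 0.06, adjusted p = 0.560).

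Nemf and Ltn1 handle the nascent chain on the split large subunit. Nemf (chromosome 12, 69311541 to 69357201) footprints stood at 17.6, 15.5 and 16.3 TPM in KO libraries, against 16.9, 14.4, 15.5 and 15.5 TPM in WT libraries. Its RNA was the lowest of the 9 genes, at 6.24, 5.88 and 5.18 TPM in KO libraries against 4.80, 4.04, 5.28 and 4.19 TPM in WT libraries. In RNA 2 of 3 KO libraries lay above all WT libraries, and the third lay below WT replicate 3. The RNA log2 fold change of 0.29 ± 0.11, in size the largest of the 9 genes in any comparison, missed the threshold (adjusted p = 0.124) and rested on 51 to 129 estimated counts a library. The footprint change was 0.07 ± 0.05 (adjusted p = 0.406), and footprints relative to RNA gave -0.23 ± 0.13 (adjusted p = 0.565).

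Ltn1 (chromosome 16, 87376651 to 87432619) was the one gene of the 9 with a footprint value below 0. Footprints stood at 25.1, 22.8 and 23.6 TPM in KO libraries, against 24.6, 23.6, 25.1 and 24.05 TPM in WT libraries. RNA stood at 33.1, 28.2 and 25.7 TPM in KO libraries, against 28.6, 24.6, 27.7 and 29.1 TPM in WT libraries, and KO replicate 1 was the highest of all 7. The groups overlapped in both assays (footprints -0.04 ± 0.04, adjusted p = 0.534, RNA 0.07 ± 0.07, adjusted p = 0.688). Without KO RNA replicate 1 the RNA value was -0.02.

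**Figure D2:**
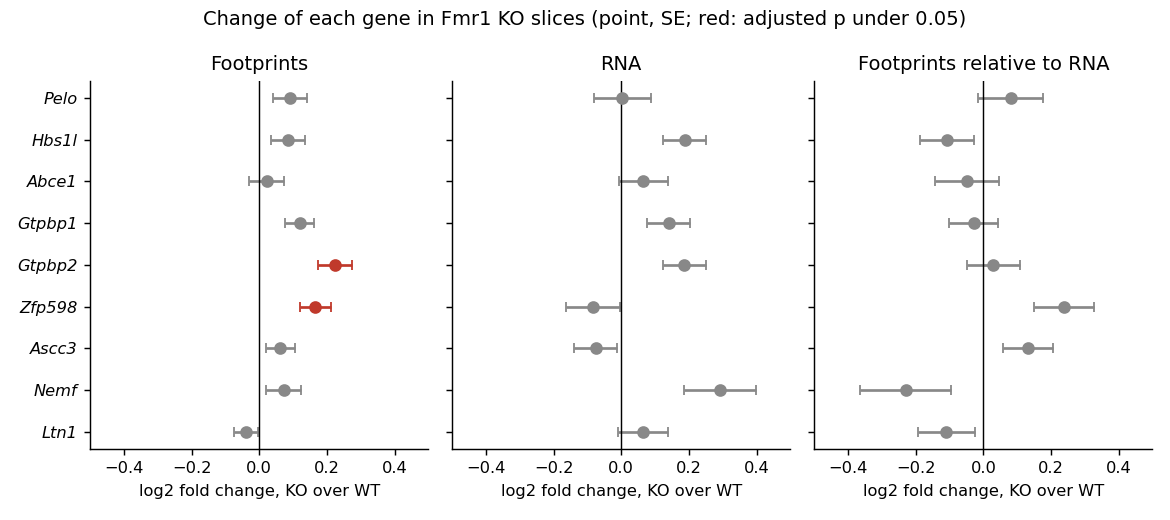
Log2 fold change of KO over WT (points) with its SE (bars) for the 9 genes, in footprints, in RNA and in footprints relative to RNA (left to right), red where the adjusted p is under 0.05. The 2 red points are the footprints of Gtpbp2 (0.22) and Zfp598 (0.17), and in the right panel Zfp598 has the largest positive value (0.24).

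The order of the 9 genes by footprint level was the same in KO and WT slices. Abce1 came first, followed by Gtpbp1, Ltn1, Hbs1l, Pelo, Nemf, Gtpbp2, Zfp598 and Ascc3. The library ranges of Hbs1l and Pelo overlapped, as did those of Pelo and Nemf, and all other neighbours were separate. Mean footprint levels spanned 4.91 to 85.2 TPM in KO slices and 4.68 to 83.4 TPM in WT slices. In RNA, Gtpbp2, Gtpbp1, Hbs1l and Abce1 formed a top group whose neighbours overlapped in both genotypes, at means of 37.2 to 41.4 TPM in KO slices and 32.7 to 36.5 TPM in WT slices. Ltn1, Pelo, Zfp598, Ascc3 and Nemf followed in both genotypes, with Pelo and Zfp598 overlapping in WT slices.

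Footprint and RNA levels ranked the genes differently, which shows in the ratio of footprint TPM to RNA TPM. Nemf had a ratio of group means of 2.86 in KO slices and 3.40 in WT slices, above 96.3% and 97.4% of all genes. Abce1 had 2.29 in KO slices and 2.37 in WT slices, above 93.9% and 94.0% of genes. These 2 genes thus carried many footprints for their RNA. No TPM in any library lay below 0.880. If a constant was added to every gene, ratios of low genes such as Nemf are drawn toward 1, which was not tested.

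Gtpbp2 lay at the other end, with a ratio of 0.284 in KO slices and 0.274 in WT slices, above 7.18% and 7.14% of genes. Zfp598 had 0.453 in KO slices and 0.374 in WT slices, Ascc3 0.509 and 0.463, and Hbs1l 0.506 and 0.542. Pelo, Ltn1 and Gtpbp1 lay between 0.792 and 0.935 in KO slices and between 0.797 and 0.886 in WT slices, near the median of all genes (0.781 in KO and 0.777 in WT). The called gene Gtpbp2, whose RNA was in the top group, was therefore 7th of 9 by footprints.

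Per replicate number, the Zfp598 ratio was 0.478, 0.457 and 0.425 in KO slices, against 0.363, 0.386, 0.433 and 0.326 in WT slices, where only WT replicate 3 reached into the KO range. For Ascc3 the ratio was 0.497, 0.496 and 0.536 in KO slices, against 0.458, 0.457, 0.483 and 0.456 in WT slices, with every KO ratio above every WT ratio, as for 6.58% of all genes. In the test of footprints relative to RNA, Ascc3 gave 0.13 ± 0.07 (adjusted p = 0.535), so neither gene was called. For Nemf the ratio was 2.82, 2.64 and 3.15 in KO slices, against 3.52, 3.56, 2.94 and 3.70 in WT slices. These ratios rest on matching footprint and RNA libraries by replicate number. Over all genes, deviations of matched libraries from their group means correlated weakly. The correlations were 0.17, 0.05 and -0.05 in KO, and 0.02, 0.10, 0.06 and 0.10 in WT. Unmatched pairs ran from -0.15 to 0.099 in KO and from -0.092 to 0.057 in WT. The matched values of 0.05 and -0.05 in KO and 0.02 in WT lay within these ranges.

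**Figure D3:**
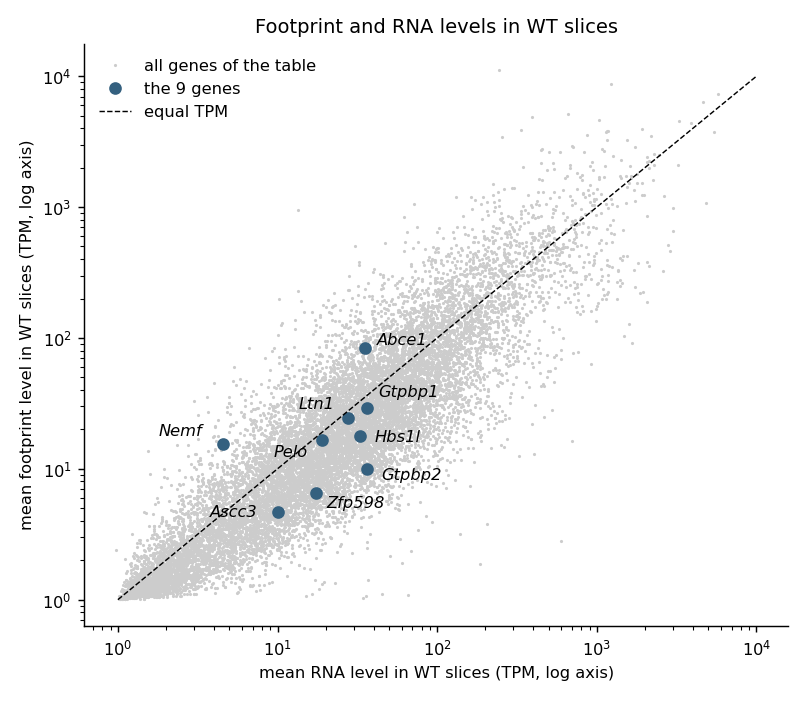
Mean footprint TPM against mean RNA TPM in WT slices (both axes log) for all genes (grey) and the 9 genes (blue), with a dashed line at equal levels. Nemf and Abce1 lie above the line and Gtpbp2 farthest below it among the 9 genes.

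Long genes tended to have lower KO footprints in these data, and the 9 genes differ in length. Length here was derived from the ratio of estimated count to TPM and is not the genomic span. With all genes split by length into 4 bins of equal size, the bin of the longest genes had a median footprint log2 fold change of -0.03. It held 186 genes called higher and 613 lower, against 400 higher and 279 lower in the second bin. The shortest bin held 230 higher and 244 lower, and the third 361 and 364, so the change did not fall steadily with length. Over all genes tested the Spearman correlation of length and footprint change was -0.09. Zfp598, Nemf, Ltn1 and Ascc3 belong to the longest bin, with lengths of 1.98, 2.33, 3.89 and 4.85 times the median gene. Hbs1l, Gtpbp1, Gtpbp2 and Abce1 belong to the third bin and Pelo to the second. Zfp598 was thus called higher within the bin that held the fewest higher genes. With each library's length trend removed, Ascc3 reached 0.13 and was called (adjusted p = 0.0461), Ltn1 turned to 0.02, and Gtpbp2 and Zfp598 remained called.

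**Figure D4:**
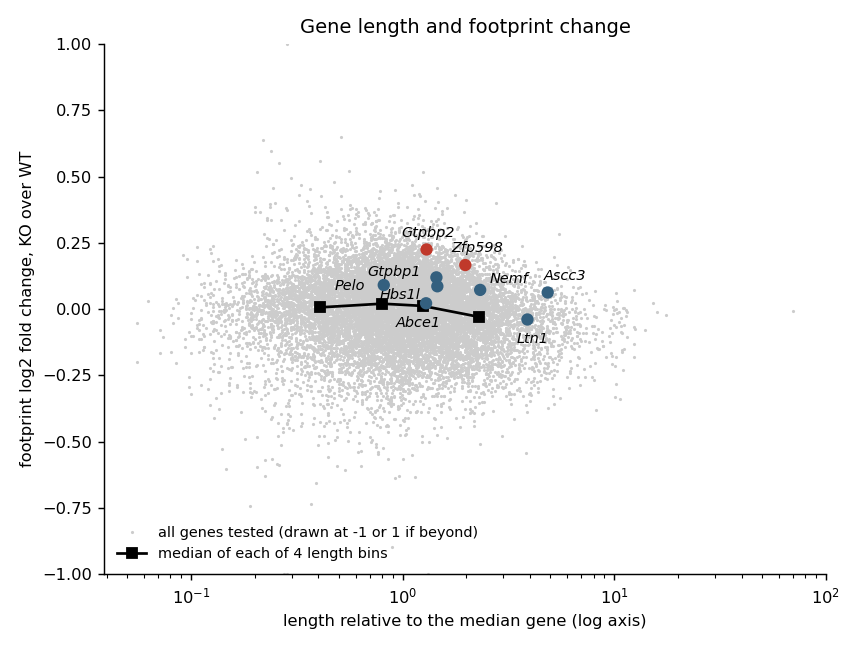
Footprint log2 fold change of KO over WT against gene length relative to the median gene (log axis) for all genes tested (grey) and the 9 genes (red where called, blue where not), with the median of each length bin (black squares). The median is -0.03 in the longest bin, where Zfp598, Nemf, Ltn1 and Ascc3 lie.

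Around the 9 genes, 48 other stalling and quality control genes were measured, of 49 listed. In KO footprints 14 of the 48 were called higher, 0 lower and 34 were not called, that is 29.2% higher beside 8.15% of all genes. The list was drawn up with earlier results of these data known, and the all-gene share is not matched for level. The difference between these shares was not tested. The median footprint log2 fold change of the 48 was 0.07, with 38 of 48 above 0, beside 50.0% of all genes tested. In RNA 4 were called, all higher, beside 2.11% of all genes, with a median of 0.08. In footprints relative to RNA none was called by edgeR, and 4 had an unadjusted p under 0.05. The count called higher in footprints was 6 to 15 over the alternatives, with 8 without KO replicate 1, 7 without KO replicate 3 and 8 without WT replicate 4. Without KO replicate 1 another gene, Gcn1, was called lower.

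Among the termination and elongation relatives 6 of 11 were called higher in footprints. Etf1, which encodes termination factor eRF1, averaged 119.3 ± 7.59 TPM in KO slices and 104.4 ± 1.69 TPM in WT slices (0.18 ± 0.04, adjusted p = 0.00992). Gspt1 and Gspt2, which encode forms of its partner eRF3, were not called (0.08 and 0.07, adjusted p = 0.152 and 0.386). The ABC-F ATPase genes Abcf2 (0.27), Abcf3 (0.24) and Abcf1 (0.16), relatives of Abce1, were called. Abcf2 and Abcf3 kept the call in all 19 alternatives, while Abcf1 lost it in 8 (adjusted p of up to 0.117). Of these, Abcf3 and Abcf1 were also called in RNA (0.35 and 0.34), where Abcf1 lost the call in 6 of 19 alternatives. The elongation factor genes Eef1a1 and Eef1a2, relatives of Hbs1l, were at 0.11 each and lost the call in 10 and 12 of 19 alternatives. Eef1a1 has processed pseudogenes that can share its reads.

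In the nascent chain group 4 of 8 were called higher in footprints. Vcp, the ATPase that extracts ubiquitinated chains from the ribosome, averaged 358.6 ± 24.3 TPM in KO slices and 297.1 ± 12.0 TPM in WT slices (0.26 ± 0.04, adjusted p = 0.00238). Its cofactors Nploc4 (0.30, adjusted p = 0.00107) and Ufd1 (0.15, adjusted p = 0.0133) were called as well. Vcp and Ufd1 were also called in RNA (0.36 and 0.48). Klhdc10, a ubiquitin ligase receptor for tailed nascent chains, was called at 0.15 and lost the call in 4 of 19 alternatives (adjusted p of up to 0.113), and Ufd1 lost its footprint call in 2. Ankzf1, which releases the chain from its tRNA, just missed the threshold (0.21, adjusted p = 0.0525) and was called in 5 of 19 alternatives, and Tcf25, the partner of Listerin, was not called (0.07, adjusted p = 0.240).

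Of 17 collision sensing and response genes 3 were called higher in footprints: Gigyf1, a translational repressor subunit (0.21), the ubiquitin ligase gene Mkrn1 (0.20), and Rack1, a small subunit protein (0.09). Rack1 lost its call in 15 of 19 alternatives and has pseudogenes, and Gigyf1 lost its call in 2. The collision sensors Gcn1 and Map3k20 were at -0.09 and -0.13 and were not called (adjusted p = 0.345 and 0.340). Without KO footprint replicate 1 Gcn1 stood at -0.16 and was called lower (adjusted p = 0.0442). Edf1, Gigyf2 and Eif4e2, which act together to block initiation after a collision, were at 0.08, 0.10 and 0.07 and were not called (adjusted p = 0.114, 0.154 and 0.514). With the length trend removed Gigyf2 was called higher at 0.14 (adjusted p = 0.0302). Of the partners of Ascc3, Ascc1 was called higher at 0.22 (adjusted p = 0.0212) but lost the call in 4 of 19 alternatives (adjusted p of up to 0.0804), and Ascc2 and Trip4 were at 0.01 and -0.01. No gene was called among 5 of mRNA decay or among 4 of mitochondrial ribosome rescue in either assay.

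**Figure D5:**
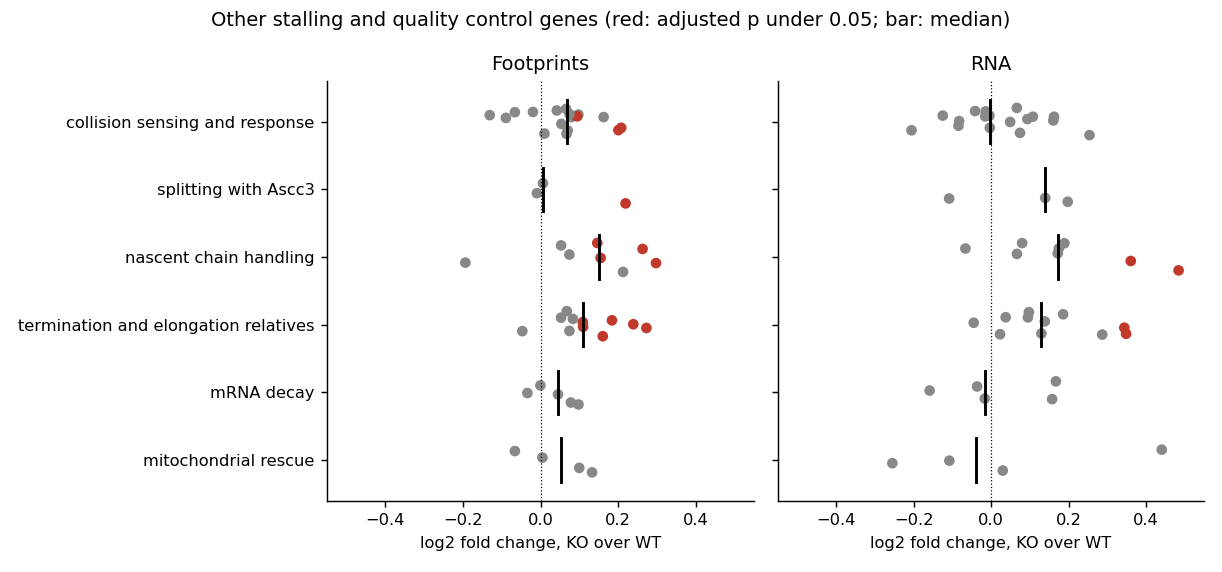
Log2 fold change of KO over WT for the 48 other stalling and quality control genes by role, in footprints (left) and RNA (right), red where the adjusted p is under 0.05, with a bar at each median and spread up and down only for legibility. All 14 red points in footprints and all 4 in RNA lie to the right of 0.

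Over the 7 footprint libraries, the genes whose log2 level was most like that of Gtpbp2, of 14437 others, were Cdc37 (r = 0.998), Twf2 (0.995) and Znf512b (0.995). For Zfp598 they were Agfg1 (0.991), Prkd1 (0.989) and Eif2b2 (0.983). With each group's mean removed the values were 0.991, 0.978 and 0.975 for Gtpbp2, and 0.957, 0.946 and 0.925 for Zfp598. The genes share the same libraries and scaling, and the highest of so many correlations over 7 points is high in any case.

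Markers of several cell types and regions differed by genotype in the same libraries, where 8.15% of all genes were called higher and 10.4% lower in footprints. All 5 microglial markers were called lower in KO footprints, with summed levels of 297 to 317 TPM in KO and 362 to 374 TPM in WT. All 4 markers of meningeal fibroblasts were called lower, at 108 to 116 TPM in KO and 139 to 161 TPM in WT. Of 4 thalamic markers 3 were called higher, at 104 to 108 TPM in KO and 74.6 to 97.0 TPM in WT. CA1 markers summed to 245.6 to 261 TPM in KO and 269 to 275 TPM in WT, with 1 of 4 called lower. The CA1 markers were split in direction, with 2 of 4 footprint log2 fold changes above 0 and a range of -0.41 to 0.11. Summed footprints were also apart for astrocytes, at 1434 to 1464 TPM in KO and 1518 to 1641 TPM in WT. Of 5 astrocyte markers 1 was called higher and 2 lower. Dentate gyrus sums were apart too, at 149 to 161 TPM in KO and 164 to 183 TPM in WT. Of 3 dentate markers 1 was called lower and 1 had a log2 fold change above 0 (0.02). Choroid plexus markers, of which 2 of 4 were measured, summed to 9.13 to 17.3 TPM in KO and 7.38 to 8.85 TPM in WT, with 1 called higher and 1 lower. Footprint sums overlapped for the remaining lists. There, 2 of 5 oligodendrocyte, 2 of 5 interneuron, 1 of 4 endothelial, 1 of 4 CA3 and 1 of 5 excitatory neuron markers were called lower, and 0 higher. In RNA the sums of excitatory neuron markers were lower in every KO library, at 4079 to 4331 TPM in KO and 4377 to 4385 TPM in WT, although no single marker was called. RNA sums were likewise apart, in the direction seen in footprints, for microglia, meningeal fibroblasts, thalamus, CA1 and dentate gyrus. Of the 4 meningeal fibroblast markers, however, 1 was called lower in RNA and 1 had a log2 fold change above 0 (0.45). Every marker in the tables exceeded 2 TPM in at least 1 library of each group. In slices of mixed cells, fewer cells of a type and less RNA per cell cannot be told apart, and the part of these markers in the Gtpbp2 and Zfp598 results was not tested.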

How the data were processed

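The 9 members, the lists around them and the motifs were chosen with earlier results of these data known. Per the submitters' processing notes, reads were handled with cutadapt 1.7.1, Trimmomatic 0.32, Bowtie2 2.1.0, TopHat2 2.0.9, SAMtools 0.0.19, bedtools and RSEM 1.2.11 on mm10. The tables deposited by the authors hold RSEM estimated counts and TPM per gene for 14 libraries. The deposited counts may have been adjusted after RSEM, which no label states. Of the deposited counts 99.8% lie more than 0.001 from a whole number. The ratio of count to TPM split into a gene term and a library term to within 9.5e-15 (natural log). In every library the lowest TPM lay between 0.880 and 1.0, and the TPM summed to 1008322 to 1014087. The fold changes of low genes may thus be understated, their counts overstated and their footprint to RNA ratios drawn toward 1. Within groups, the direction of replicates 1 and 2 against 3 and 4 held 3.74% of the variance in footprints and 2.00% in RNA, where 20% is expected. Genes with few counts (means of 20 to 50) had a mean ratio of variance to mean of 0.304 in KO footprints and 0.292 in WT footprints, and 0.638 in KO RNA and 0.589 in WT RNA, below the Poisson value. The p-values may therefore be too small and the SE understated.

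Counts were rounded and tested with edgeR 4.0.16 in R 4.3.3 (quasi-likelihood test with robust dispersion, TMM, filterByExpr at a minimum count of 10, adjusted p by Benjamini-Hochberg over all genes tested, threshold 0.05), each assay on its own. For footprints relative to RNA, 1 model of all 14 libraries held an assay-by-genotype term, and none for the shared lysate. Each SE was obtained by dividing the size of the log2 fold change by the root of its F value. The scripts were checked on simulated counts with more than Poisson spread. Genes with few counts spread less than that here, so the check does not bear on false calls in these data. Symbols were matched to RefSeq annotation of GRCm38.p6, the build named mm10 in the notes. All 9 members are named with every library's value; of the other 48 genes, those called and the direct partners are named. Alternatives were DESeq2 1.42.0, limma 3.58.1 on log2(TPM + 1) or log2(TPM + 0.1), voom, other scalings and filters, 1 fit over all groups, a replicate block, a covariate, a length trend and leaving out each library. Counts of the other 48 genes under these alternatives were added after seeing the data. Strand use in counting is not given in the sources used here, so reads of overlapping genes cannot be told apart.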

Additional observations from a re-analysis of the deposited data

Results flagged for a closer look

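In the groups of 4 WT libraries, 30 sets of values were examined for a library far from the others, and 5 had one, where chance gives about 1 in 20. WT replicate 3 stood apart in its ratio of footprint TPM to RNA TPM for Gtpbp1 (0.878), Ascc3 (0.483), Abce1 (2.49) and Fmr1 (2.26), above the other WT replicates for the first 3 genes and below them for Fmr1. WT replicate 2 stood apart in Abce1 footprints, at 75.5 TPM. Groups of 3 KO libraries were too small for this rule.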

How the results depend on the processing

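Of 59 gene-level values recomputed under 18 to 27 alternatives each (1198 values), 1095 kept direction and side of the threshold, 73 lost a call, 10 gained one and 20 changed sign, none of the 20 being called on either side. The Gtpbp2 footprint call was lost with the replicate block alone (0.21, adjusted p = 0.0695). The Zfp598 call was lost in 9 of 19 alternatives, with an adjusted p of up to 0.175. Whether replicate numbers pair KO and WT samples is not settled. Same-numbered KO and WT footprint libraries deviated with correlations of -0.11, 0.007 and -0.44, and RNA libraries with -0.08, -0.07 and -0.34. The deposited counts may have been adjusted, so these values cannot show whether the samples were paired.

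Members called in footprints numbered 1 with DESeq2, limma on log2(TPM + 0.1), 1 fit over all groups and the covariate, 0 with the replicate block and 1 to 2 without single libraries, against 2. In RNA 1 fit over all groups called 1 member (Gtpbp2), against 0. The other genes called numbered 6 with the replicate block and 7 to 11 without single libraries in footprints (1 of the 9 without KO replicate 1 being lower), against 14, and 7 with 1 fit in RNA, against 4. All genes called in footprints numbered 1304 with the replicate block, against 2677. In RNA, against 678, they numbered 431 and 412 with limma (pseudocount 0.1 and 1), 1146 with 1 fit, 204 with the replicate block, 362 with the covariate and 236 to 872 without single libraries. For footprints relative to RNA, against 5, they numbered 90 with DESeq2, 23 with the length trend removed, 70 with limma at either pseudocount, 3 with the within-lysate difference, 217 and 36 with voom (lysate block and quality weights) and 3 to 96 without single libraries. No member was called there in any alternative. The cause of these differences was not tested.

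Sign changes were as follows. In footprints Ltn1 turned to 0.017 with the length trend removed and Abce1 to -0.0029 with voom. Abce1 ran from -0.027 to 0.049, Ascc2 from -0.018 to 0.025 and Trip4 from -0.031 to 0.019 without single libraries. In RNA Pelo turned to -0.0175 and -0.0166 with limma (pseudocount 0.1 and 1), -0.014 with the replicate block and -0.013 with voom. Without single libraries it ran from -0.063 to 0.046, and Ltn1 from -0.01995 to 0.15. Relative to RNA, Gtpbp1 ran from -0.072 to 0.0088, Gtpbp2 from -0.0018 to 0.0698 and Abce1 from -0.13 to 0.017 without single libraries. DESeq2 gave no adjusted p for 3 RNA values. Nemf, the lowest of the 9 in RNA, rested on 51 to 129 counts a library.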
